A study of Rattus norvegicus with 8 samples.

Results

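The genes described here are those of sphingolipid metabolism, with *Acer2*, the Golgi alkaline ceramidase, set beside the other ceramidases, the ceramide synthases and the sphingomyelin enzymes. They were the rows that the deposited files annotate with the KEGG pathway rno00600, 49 of 22601 genes. The annotation uses no measured value, but *Acer2* was singled out because it was higher in the PTZ group than in the Con. group, so that its values in this comparison are a description. Of the 49 genes, 42 had a mean of at least 0.1 FPKM, the number of fragments mapped to a gene divided by its transcript length and by the depth of its library, over the 8 libraries and were tested. The other 7 were *Acer1*, *Cers1*, *Cers3*, *Enpp7*, *Sptlc3*, *Degs1l2* and a sialidase 4 gene (GeneID 103690047). Calls needed both an unadjusted limma p-value below 0.05 and a difference above 1.5-fold, and Benjamini-Hochberg adjusted p-values over all tested genes are given beside them.

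Hippocampal RNA of wild-type Wistar rats weighing 180 to 220 g was sequenced, 1 library per rat. The 3 rats of the Con. group received saline and then the solvent of Q808. The 3 rats of the PTZ group received pentylenetetrazole (PTZ), a convulsant that blocks GABA-A receptors, in 14 injections of 35 mg/kg, 48 h apart, over 28 days, with a closing dose of 60 mg/kg, and then the same solvent. Repeated PTZ kindles rats, so that a given dose comes to evoke stronger seizures. The 2 rats of the Q808 group received the same PTZ course and then 30 mg/kg of Q808, an anti-convulsant compound in preclinical study, by gavage for 28 days. Both the PTZ and the Q808 rats were given a further PTZ injection below the convulsive dose on the day after the last gavage, and the tissue was taken after that seizure evaluation. The sex and age of the rats are not given in the sources used here.

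Sphingolipids are membrane lipids built on the base sphingosine, and ceramide, sphingosine joined to a fatty acid, is the branch point of the pathway. Ceramide is made from serine and palmitoyl-CoA through serine palmitoyltransferase, ceramide synthases and a desaturase, or is released from sphingomyelin by sphingomyelinases. Ceramidases split it into sphingosine, which the sphingosine kinases turn into the signaling lipid sphingosine-1-phosphate (S1P). In the brain a large part of ceramide enters galactosylceramide and sulfatide, the glycolipids of the myelin that oligodendrocytes make, and neurons carry gangliosides built from glucosylceramide.

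*Acer2* and *Acer3* encode alkaline ceramidases of one family, and their start regions are shown because Con. and PTZ stood apart in the level of the former and overlapped in that of the latter. RefSeq windows of 250 bases before and 50 bases after the start were found for 40 of the 49 members, in the GRCr8 assembly. The window of *Acer2* lies at chr5:106437598-106437897 on the plus strand and that of *Acer3* at chr1:162017749-162018048 on the minus strand. Capitals mark matches on either strand to 6 motifs, the TATA box TATAAA, the CCAAT box, the GC box GGGCGG, the E box CACGTG, the cAMP response element core TGACG and the AP-1 motif TGANTCA.
Acer2: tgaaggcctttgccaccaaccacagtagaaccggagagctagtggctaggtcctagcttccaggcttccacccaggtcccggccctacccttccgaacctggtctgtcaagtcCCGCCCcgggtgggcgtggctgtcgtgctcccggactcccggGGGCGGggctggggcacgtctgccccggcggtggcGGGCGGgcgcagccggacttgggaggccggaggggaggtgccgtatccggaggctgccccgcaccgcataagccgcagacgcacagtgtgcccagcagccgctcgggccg
Acer3: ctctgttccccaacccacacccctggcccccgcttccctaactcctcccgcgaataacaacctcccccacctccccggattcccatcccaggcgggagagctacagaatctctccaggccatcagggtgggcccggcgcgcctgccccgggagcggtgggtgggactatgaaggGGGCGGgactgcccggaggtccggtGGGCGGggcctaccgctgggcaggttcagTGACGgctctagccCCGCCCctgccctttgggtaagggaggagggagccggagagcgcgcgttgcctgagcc

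Both windows are rich in G and C, 71.3% in *Acer2* and 70.0% in *Acer3*, where the median of all windows is 51.7%. *Acer2* holds 3 GC boxes, which begin 137, 95 and 60 bases before the start. *Acer3* also holds 3 GC boxes, 76, 51 and 8 bases before the start, and 1 match to TGACG at 22 bases before it. No other motif was matched in either window. Over 33469 windows of the same length, a GC box was found in 33.1%, TGACG in 21.2%, a TATA box in 14.2%, CCAAT in 37.5%, CACGTG in 6.42% and the AP-1 motif in 7.33%. None of the motifs overlapped another in these windows, and a match says only that the letters are present.

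The libraries did not all look like hippocampus alone. A list of 6 striatum markers (among them *Drd1*, *Drd2*, *Adora2a*, *Rgs9* and *Ppp1r1b*) had a mean log2(FPKM + 0.1) of 6.20 to 7.35 in Con.-3, PTZ-3 and Q808-1 and of 1.56 to 2.48 in the other 5 libraries. The list of 8 hippocampus markers went the other way, at 1.30 to 1.73 in those 3 libraries and 3.16 to 3.41 in the other 5. Each group held 1 such library, so results are given below also within the 5 and within the 3. The mean level of 8 oligodendrocyte markers was 7.05 to 8.49 in Con., 7.31 to 8.44 in PTZ, and 9.21 in Q808-1 against 7.50 in Q808-2. Q808-1 was also highest of the 8 libraries in the lists of 6 astrocyte markers (7.03, the others 6.36 to 6.77), 6 microglia markers (4.27, the others 2.99 to 3.56) and 8 endothelial markers (3.94, the others 2.53 to 3.56), and lowest in 6 neuronal markers (6.09, the others 6.40 to 7.42). The 6 choroid plexus markers ranged from 0.47 in Con.-3 to 4.79 in Q808-2, with *Otx2* listed at 0 in all 8 libraries, and the 6 meningeal fibroblast markers from -0.50 in Con.-3 to 2.86 in Q808-2. No other marker was at 0 in all libraries. The share of cells in a tissue and the amount of RNA per cell cannot be told apart in bulk libraries. Depth, read from the steps in the FPKM values, lay between 0.854 (PTZ-3) and 1.19 (Con.-2) times that of Con.-1, and for the 47 members listed above 0 the FPKM could be turned into the smallest whole numbers of fragments that give them.

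Among the sphingolipid genes, levels spanned a wide range. Of the 42 tested members, 24 had a mean over the 8 libraries of 10 FPKM or more, 15 lay between 1 and 10, and 3 (*Sgms2*, *Sphk1* and *Neu4*) were below 1. The highest mean was that of *Plpp3*, a lipid phosphate phosphatase, at 99.4 FPKM, followed by *Ugt8*, the galactosylceramide synthase, at 55.4, and *Degs1*, the main dihydroceramide desaturase, at 42.7. *Acer2* stood at rank 33 of 49 with 5.05 FPKM, and *Sphk1* at rank 41 with 0.308.

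*Acer2* (GeneID 313339) was higher in every PTZ-injected rat than in every control. Its FPKM were 2.41, 2.46 and 2.38 in Con.-1 to Con.-3, from 246, 298 and 240 fragments. In PTZ-1 to PTZ-3 they were 7.40, 5.61 and 5.99, from 816, 635 and 521 fragments. Those of the Q808 rats were 10.7 in Q808-1 and 3.45 in Q808-2, from 946 and 365 fragments. The Con. values lay within a narrow band, the PTZ values all lay above it, and the 2 Q808 values enclosed the whole PTZ range. The group means were 2.42 ± 0.0437 (SD, n = 3) in Con., 6.33 ± 0.945 (n = 3) in PTZ and 7.08 ± 5.13 (n = 2) in Q808.

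**Figure D1:**
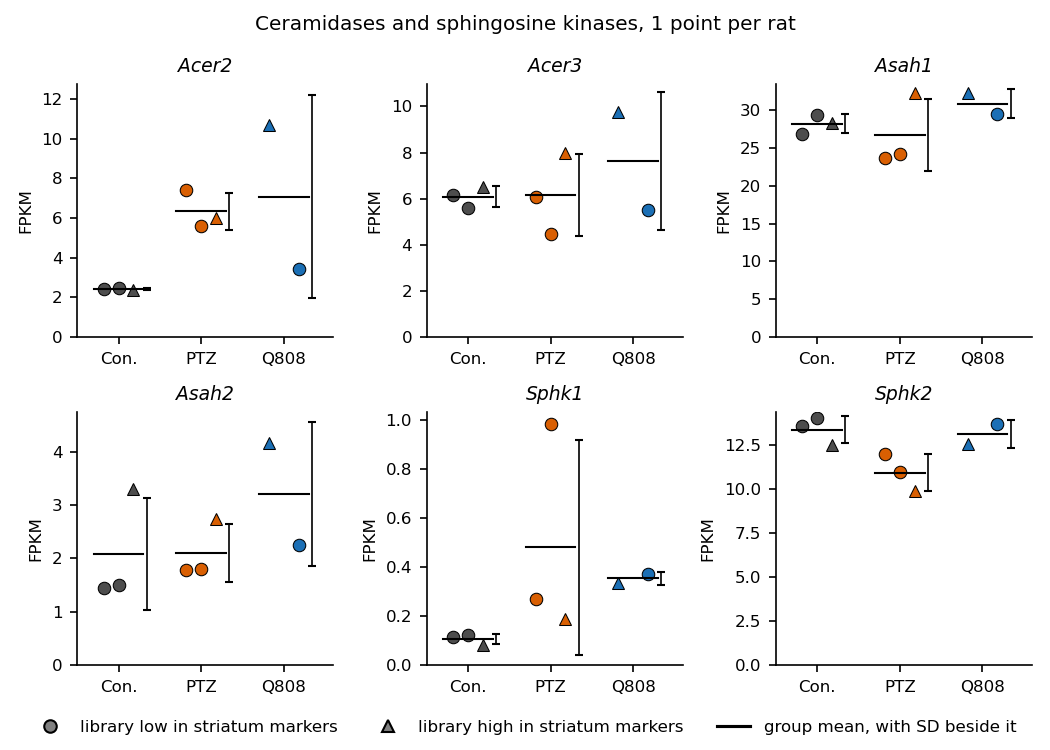
FPKM of 4 ceramidases and 2 sphingosine kinases in each rat, by group (Con. and PTZ n = 3, Q808 n = 2), with the group mean as a line, the SD beside it, and triangles for the 3 libraries high in striatum markers. *Acer2* lies at 2.38 to 2.46 FPKM in Con. and at 3.45 or more in all other rats, and *Sphk1* reaches 0.986 in PTZ-2, while the groups overlap for *Acer3*, *Asah1* and *Asah2* between Con. and PTZ.

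On the scale of log2(FPKM + 0.1), on which all fold changes below were computed, *Acer2* differed by 1.34 (SE 0.20) between PTZ and Con., 2.54-fold, which is a description because the gene was chosen for it. The difference was 1.37 within the 5 libraries low in striatum markers and 1.30 between PTZ-3 and Con.-3, so that it was about as large in both sets. Between Q808 and PTZ it was -0.04 (SE 0.47, 95% interval -1.19 to 1.10), with values on both sides. It was -0.88 for Q808-2 against PTZ-1 and PTZ-2 and 0.83 for Q808-1 against PTZ-3. Against Con., the Q808 group was higher by 1.30 (SE 0.48), 2.46-fold, and called, with an adjusted p of 0.901 by limma over all tested genes. The exact permutation test over the 5 rats (two-sided) gave p = 0.1, the smallest that 3 against 2 allows. This comparison shares the Con. libraries on which *Acer2* was chosen, and it was 0.49 within the 5 libraries and 2.13 between Q808-1 and Con.-3. Leaving out Q808-1 gave 0.50, which was not called, and the call was also lost without Con.-1, Con.-2 or Con.-3, at 1.29 to 1.31. Q808-1 is the library with the highest oligodendrocyte, astrocyte, microglia and endothelial levels given above. Between Con. and PTZ the ranges of the oligodendrocyte, microglia and endothelial lists overlapped. The mean over the 6 astrocyte markers, none of them at 0 in all libraries, was higher in PTZ than in Con., as *Acer2* was. This list mean was 6.48, 6.58 and 6.36 in Con., 6.77, 6.62 and 6.65 in PTZ, and 7.03 and 6.56 in Q808. Its single markers are not given here. Every PTZ value of this list was above every Con. value, and Q808-2 was within the Con. range. The part of these lists in the *Acer2* values was not tested.

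As a share of all ceramidase FPKM in the same library, which does not depend on the scaling between libraries, *Acer2* made up 6.54%, 6.33% and 5.86% in Con.-1 to Con.-3. In the PTZ rats the share was 19.0%, 15.5% and 12.2%, and in the Q808 rats it was 18.8% and 8.48%. These shares use the *Acer2* values on which the gene was chosen and are a description. The shares of both Q808 rats were above the Con. range. The summed FPKM of the 5 ceramidases overlapped, at 36.9 to 40.5 in Con., 36.1 to 49.1 in PTZ, and 56.9 and 40.7 in Q808.

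The other ceramidases were not called in the main fit of any comparison. *Acer3* (GeneID 499210), an alkaline ceramidase whose loss causes a leukodystrophy in humans, had 6.15, 5.60 and 6.50 FPKM in Con., 6.07, 4.45 and 7.96 in PTZ, and 9.76 and 5.51 in Q808. Its difference between PTZ and Con. was -0.02 (95% interval -0.58 to 0.55). *Asah1* (GeneID 84431), the lysosomal acid ceramidase and by far the most abundant of the 5, had 26.9, 29.4 and 28.3 FPKM in Con., 23.7, 24.2 and 32.2 in PTZ, and 32.3 and 29.5 in Q808. The PTZ values lay on both sides of the Con. range, and the difference was -0.09 (-0.45 to 0.27). *Asah2* (GeneID 114104), the neutral ceramidase of the cell surface, had 1.45, 1.49 and 3.30 FPKM in Con., 1.78, 1.80 and 2.74 in PTZ, and 4.17 and 2.25 in Q808. Its 3 highest values were those of the 3 libraries high in striatum markers, and the same held for *Acer3*. *Acer1*, the ceramidase of skin, had between 0 and 5 fragments in each library and was not tested.

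In the comparison of PTZ with Con., *Acer2* was the only member called, 1 of 42, where 2.53% of all 15593 tested genes were called and 1.69% were called higher. Since *Acer2* was chosen on this comparison, nothing is read from that count. None of the other 41 members had an unadjusted p-value under 0.05 by limma, where 589 of all tested genes did, and 40 of these 41 differed by less than 1.5-fold. Their median difference was -0.03 on the log2 scale, against -0.04 for all tested genes. With the replicate number as a block, 2 members were called, *Acer2* and *Sphk1*, where 616 of all tested genes were called. Groups did not overlap for 3 of 42 members (*Acer2*, *Sphk1* and *Sphk2*), where they did not overlap for 9.15% of all tested genes.

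*Sphk1* (GeneID 170897), the sphingosine kinase that acts on the product of ceramidases, was the member with the next largest difference. It had 0.113, 0.122 and 0.0812 FPKM in Con., from 7, 9 and 5 fragments. In PTZ it had 0.268, 0.986 and 0.188 FPKM, from 18, 68 and 10 fragments, and in Q808 0.334 and 0.372, from 18 and 24 fragments. All 5 PTZ-injected rats were above all 3 controls, and PTZ-2 was far above the rest. The difference between PTZ and Con. was 1.25 (SE 0.55, 2.38-fold), which was not called (95% interval -0.04 to 2.54, adjusted p = 0.999). At such low levels it depends on the pseudocount, and was 0.38 with a pseudocount of 1 and 1.74 with 0.01. It was 1.54 within the 5 libraries and 0.67 between PTZ-3 and Con.-3, and without PTZ-2 it was 0.67. Without PTZ-3 it was 1.63 and called, and with the replicate block it was called at the same 1.25.

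Against Con., the Q808 rats were higher in *Sphk1* by 1.15 (SE 0.37, 2.21-fold, adjusted p = 0.901), and the gene was called. This difference was 1.12 within the 5 libraries and 1.26 between Q808-1 and Con.-3, so that both Q808 rats stood about as far from their own controls. The call was lost when any 1 of the 5 libraries was left out, at differences of 1.06 to 1.21. It was also lost with a pseudocount of 1 (0.29), under quantile normalization (0.89), with all 3 groups in a fit (1.15) and with the replicate block (1.06). Between Q808 and PTZ the difference was -0.10 (-1.68 to 1.48). It changed sign to 0.48 without PTZ-2. With 5 to 9 fragments in each Con. library, counting error alone is large, and the Con. mean of 0.105 FPKM lies close to the filter of 0.1.

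*Sphk2* (GeneID 308589), the more abundant sphingosine kinase, had 13.6, 14.01 and 12.5 FPKM in Con., 11.9, 10.9 and 9.86 in PTZ, and 12.6 and 13.7 in Q808. All PTZ values lay below all Con. and Q808 values. The difference between PTZ and Con. was -0.29 (SE 0.14, 95% interval -0.63 to 0.04, adjusted p = 0.999), and it was not called. *Sphk1* was 0.645% to 0.863% of the FPKM of both kinases in Con., 1.88% to 8.26% in PTZ, and 2.59% and 2.65% in Q808.

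Over both PTZ-injected groups, 2 of 42 members (4.76%), *Acer2* and *Sphk1*, were higher or lower in all 5 rats than in all 3 controls, both of them higher. Of all tested genes 3.80% were apart in this way. *Acer2* was chosen for being higher in PTZ than in Con., and without it the count was 1 of 41 members (2.44%), so that nothing is read from it.

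Q808 against Con. called 3 of 42 members, *Acer2*, *Sphk1* and *Degs2*, all higher, where 3.46% of all tested genes were called and 3.07% were called higher. By limma 3 members and 667 of all tested genes had an unadjusted p-value under 0.05. *Degs2* (GeneID 314438), a desaturase that also hydroxylates dihydroceramide, had 3.39, 2.99 and 3.97 FPKM in Con., 3.03, 2.21 and 5.63 in PTZ, and 8.01 and 4.74 in Q808, from 45 to 127 fragments. Both Q808 values were above all Con. values, and PTZ-3 was above Q808-2. The difference from Con. was 0.83 (SE 0.29, 1.78-fold, adjusted p = 0.901). It was 0.56 within the 5 libraries and 0.99 between Q808-1 and Con.-3. The call was lost without Con.-1 (0.82), without Con.-2 (0.73) and with all 3 groups in a fit (0.83). Without Q808-1 the difference was 0.46, less than 1.5-fold, as was the 0.56 within the 5 libraries. *Degs2* made up 7.20% to 8.34% of the FPKM of both desaturases in Con., 5.42% to 11.2% in PTZ, and 14.3% and 9.75% in Q808. The groups did not overlap for 11 of 42 members, where they did not for 20.0% of all tested genes.

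No member was called between Q808 and PTZ, 0 of 42, where 1.92% of all tested genes were called and 1.36% were called higher. No member had an unadjusted p-value under 0.05 by limma, against 341 of all tested genes. The largest differences were those of *Degs2* at 0.86 (SE 0.46, 95% interval -0.25 to 1.96) and *Glb1*, the lysosomal beta-galactosidase, at 0.73 (SE 0.33, 95% interval -0.06 to 1.52). *Glb1* had 5.93, 3.60 and 6.81 FPKM in PTZ and 7.97 and 9.73 in Q808, with both Q808 values above all PTZ values. Groups did not overlap for 5 of 42 members (*Arsa*, *Cers4*, *Glb1*, *Sgms2* and *Sphk2*), all higher in Q808, where they did not for 15.6% of all tested genes. The median difference of the members was 0.17, against 0.10 for all tested genes, and under median ratio scaling these became 0.08 and 0.01. In all 3 comparisons, no member had an adjusted p-value under 0.05.

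**Figure D2:**
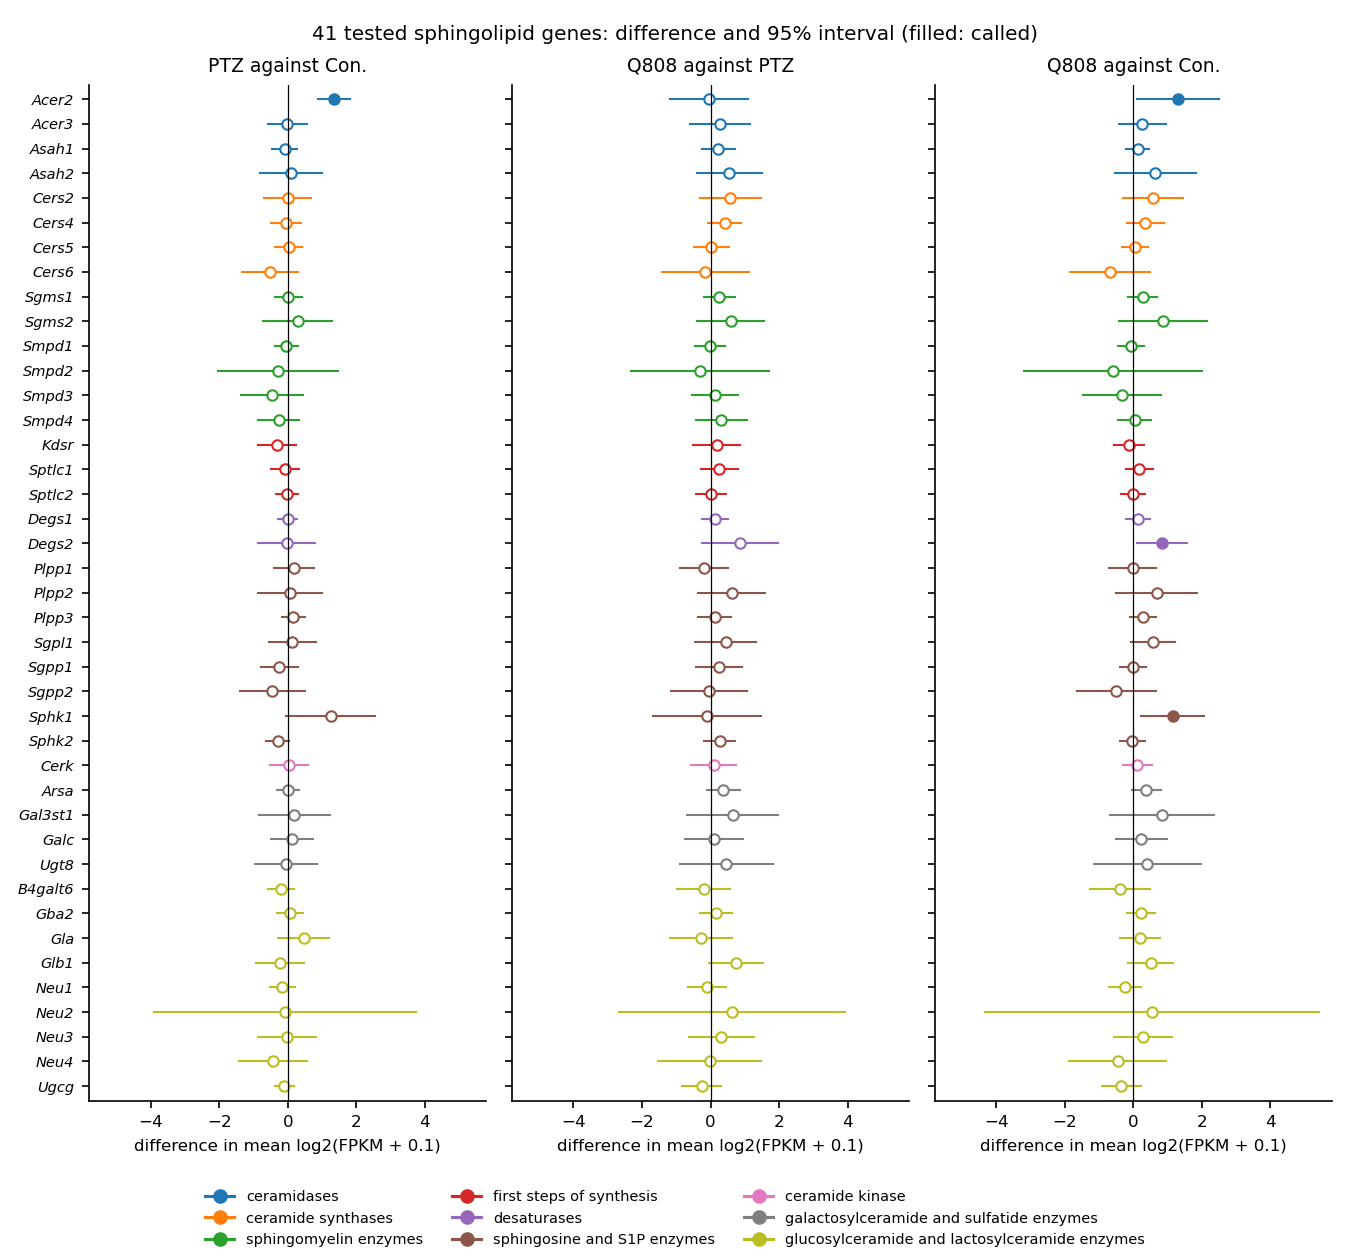
Differences in mean log2(FPKM + 0.1) of 41 of the 42 tested members in the 3 comparisons, with 95% intervals from limma, colored by role, with filled points for called genes. *Acer2* at 1.34 stands out in PTZ against Con., no point is filled in Q808 against PTZ, and *Acer2*, *Degs2* and *Sphk1* are filled in Q808 against Con., where several intervals of other members are wide.

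The ceramide synthases, which join a fatty acid to the sphingoid base, were not called in the main fit of any comparison, and 4 of the 6 were tested. *Cers2* (GeneID 310667), which makes the very long-chain ceramides of myelin, had 15.1, 11.9 and 20.8 FPKM in Con., 14.1, 11.7 and 22.2 in PTZ, and 31.6 and 17.0 in Q808. Its 3 highest values were in the 3 libraries high in striatum markers, with the highest in Q808-1, the library with the highest oligodendrocyte level, and the part of either in these values was not tested. The difference between PTZ and Con. was -0.01 (-0.70 to 0.69). *Cers4* (GeneID 304208) had 7.62, 8.70 and 11.0 FPKM in Con., 8.22, 9.34 and 8.46 in PTZ, and 12.9 and 10.3 in Q808, where both values were above all PTZ values (0.41, SE 0.20, not called).

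*Cers5* (GeneID 366984) had 18.9, 18.6 and 22.0 FPKM in Con., 18.9, 17.3 and 24.9 in PTZ, and 21.4 and 19.5 in Q808, and its difference between PTZ and Con. was 0.02 (-0.38 to 0.43). *Cers6* (GeneID 366065), like *Cers5* a synthase of palmitoyl-ceramide, had 5.16, 8.95 and 6.98 FPKM in Con., 5.11, 6.93 and 3.01 in PTZ, and 2.58 and 6.96 in Q808. The 2 lowest values were in PTZ-3 and Q808-1, both high in striatum markers, but Con.-3 at 6.98 was not low. The difference was -0.52 (SE 0.35) for PTZ and -0.68 (SE 0.47) for Q808 against Con., the lowest of all members in both comparisons, with intervals that include 0. *Cers1*, the synthase known as the main one of neurons, was listed at 0 in all 8 libraries, and *Cers3*, known from skin and testis, had at most 7 fragments.

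None of the 6 tested sphingomyelin enzymes was called in the main fit of any comparison. *Sgms1* (GeneID 353229), the Golgi sphingomyelin synthase, had 13.9, 17.5 and 17.5 FPKM in Con., 19.2, 15.4 and 14.7 in PTZ, and 20.4 and 18.8 in Q808. *Sgms2* (GeneID 310849), the synthase of the plasma membrane, had 0.329, 0.248 and 0.786 FPKM in Con., 0.624, 0.452 and 0.507 in PTZ, and 1.04 and 0.668 in Q808, from 17 to 52 fragments. Its difference from Con. was 0.29 (SE 0.43) for PTZ and 0.88 (SE 0.51) for Q808. Its level lay inside the Con. range in all 3 PTZ rats.

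*Smpd1* (GeneID 308909), the lysosomal acid sphingomyelinase, was the most abundant of the group and the most even, with 47.3, 43.7 and 39.4 FPKM in Con., 45.7, 44.8 and 36.0 in PTZ, and 39.0 and 44.4 in Q808. *Smpd4* (GeneID 303790), a neutral sphingomyelinase, had 6.18, 5.71 and 7.28 FPKM in Con., 5.06, 3.99 and 7.26 in PTZ, and 6.20 and 6.92 in Q808. The difference between PTZ and Con. was -0.05 (-0.38 to 0.29) for *Smpd1* and -0.26 (-0.86 to 0.33) for *Smpd4*.

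The neutral sphingomyelinases *Smpd2* and *Smpd3* followed the striatum markers rather than the groups. *Smpd2* (GeneID 83537) had 33.8, 25.2 and 5.48 FPKM in Con., 24.3, 16.0 and 6.73 in PTZ, and 4.60 and 26.8 in Q808. The 3 libraries high in striatum markers had 5.60 FPKM on average and the other 5 had 25.2. *Smpd3* (GeneID 94338), the main neutral sphingomyelinase of neurons, had 15.4, 16.8 and 39.7 FPKM in Con., 13.98, 13.5 and 21.0 in PTZ, and 20.8 and 14.4 in Q808, which is 27.2 against 14.8 on average. Between groups the intervals were wide, -2.03 to 1.47 for *Smpd2* and -1.35 to 0.43 for *Smpd3* in PTZ against Con. *Enpp7*, the intestinal sphingomyelinase, had fragments in 2 libraries alone, 3 in Con.-3 and 1 in Q808-1.

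Without overlap between the 3 libraries high in striatum markers and the other 5 were 17 of the 42 members, 10 higher and 7 lower in the 3, where 24.8% of all tested genes were apart in this way. The division was made from measured markers and not from the labels, so no test was run. The widest gap was that of *Neu2* (GeneID 29204), a cytosolic sialidase, at 11.0, 4.31 and 4.44 FPKM in Con.-3, PTZ-3 and Q808-1 and 0.0747 to 0.393 in the other 5. Higher in the 3 were also *Acer3*, *Asah2*, *Cers2*, *Cers5*, *Gal3st1*, *Plpp2*, *Sgpp1*, *Smpd3* and *Ugt8*. Among the lower were *Smpd2*, *Sgpp2*, *B4galt6*, *Gla*, *Plpp1* and *Smpd1*. *Acer2*, *Sphk1* and *Degs2* were not among the 17. Without the 3 libraries, limma called 4 members in PTZ against Con. (*Acer2*, *Gla*, *Kdsr* and *Sphk1*), where 1530 of all 15593 tested genes were called. Nothing about the members is read from that count. With a single Q808 library left, *Acer2* differed from PTZ by -0.88 and *Glb1* by 1.06, and *Sphk1* differed from Con. by 1.12.

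**Figure D3:**
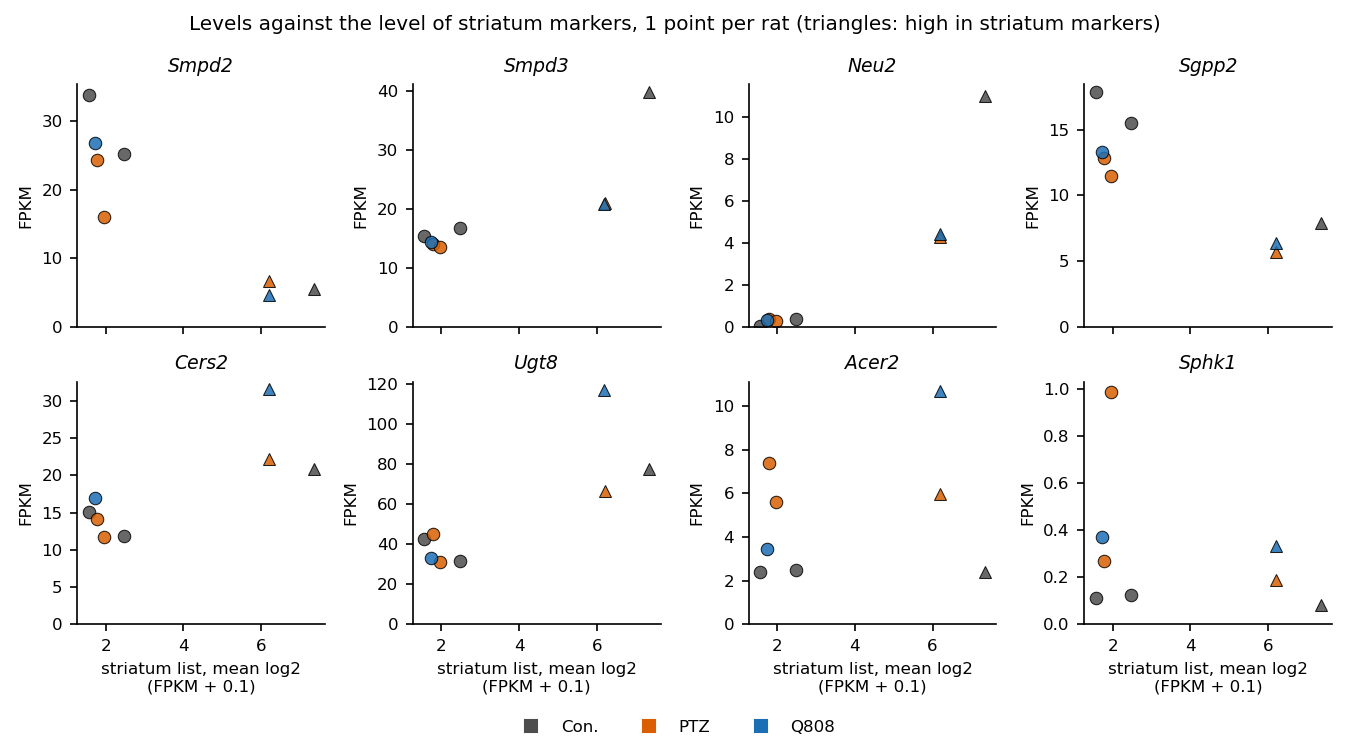
FPKM of 8 members in each rat against the mean log2(FPKM + 0.1) of the striatum list, colored by group, with triangles for the 3 libraries high in that list. *Smpd2* and *Sgpp2* are low and *Smpd3*, *Neu2*, *Cers2* and *Ugt8* high in all 3 triangles, whereas *Acer2* and *Sphk1* of the triangles spread from the lowest values (2.38 and 0.0812 FPKM in Con.-3) upward.

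The first steps of synthesis were nearly level. The 3 tested members *Sptlc1* and *Sptlc2*, subunits of serine palmitoyltransferase, and *Kdsr*, the ketosphinganine reductase, were not called in the main fit of any comparison. In PTZ against Con. they ranged from -0.31 for *Kdsr* (SE 0.23) to -0.03 for *Sptlc2* (SE 0.13). *Sptlc2* had 9.97 to 11.2 FPKM in all 8 libraries. *Kdsr* was called lower without the 3 striatum-high libraries, -0.60. *Degs1*, the main desaturase, had 38.6 to 47.8 FPKM and differed by -0.004 between PTZ and Con.

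Of the 8 enzymes of sphingosine and S1P, *Sphk1* aside, none was called in the main fit of any comparison. *Sgpp2*, an S1P phosphatase, had the lowest difference in PTZ against Con. (-0.45, SE 0.40) and in Q808 against Con. (-0.49, SE 0.46), and *Plpp2*, a lipid phosphate phosphatase, the highest in Q808 against PTZ (0.62, SE 0.40). *Sgpl1*, the lyase that ends the pathway, had 11.4, 8.45 and 10.8 FPKM in Con., 9.23, 8.63 and 17.4 in PTZ, and 18.9 and 12.2 in Q808. Both Q808 values were above all Con. values (0.58, SE 0.25, not called). *Cerk*, the ceramide kinase, had 12.8 to 23.0 FPKM with a difference of 0.03 between PTZ and Con. and 0.09 between Q808 and PTZ.

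None of the 4 myelin lipid enzymes was called in the main fits. *Ugt8* (GeneID 50555) had 42.3, 31.4 and 77.3 FPKM in Con., 45.0, 30.9 and 66.3 in PTZ, and 117 and 33.3 in Q808, in which each group's highest value was that of its striatum-high library. Those 3 libraries were also the 3 highest in the oligodendrocyte list, at 8.49, 8.44 and 9.21 against 7.05 to 7.77 in the other 5. *Gal3st1*, the sulfatide synthase, had 2.45, 2.50 and 4.66 FPKM in Con.-3, PTZ-3 and Q808-1 and 0.864 to 1.64 in the other 5. In PTZ against Con. the 4 ranged from -0.05 for *Ugt8* to 0.18 for *Gal3st1*, and in Q808 against Con. from 0.23 for *Galc*, the galactosylceramidase, to 0.83 for *Gal3st1* (SE 0.61). *Arsa*, the arylsulfatase that degrades sulfatide, had 13.5 to 16.7 FPKM in Con. and PTZ and 21.8 and 17.1 in Q808. Its difference from Con. in Q808 was 0.38 (SE 0.17, not called).

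Of the 11 enzymes of glucosylceramide and lactosylceramide, 10 were tested and none was called in the main fits. In PTZ against Con. they ranged from -0.43 for *Neu4* (SE 0.42) to 0.47 for *Gla*, the alpha-galactosidase (SE 0.31). *Gla* had 15.1, 14.1 and 10.4 FPKM in Con., 18.2, 27.6 and 11.8 in PTZ, and 12.9 and 17.2 in Q808, with PTZ-2 the highest. It was called without the 3 striatum-high libraries (0.62). In Q808 against Con. the class ranged from -0.46 for *Neu4* to 0.55 for *Neu2* (SE 1.95).

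**Figure D4:**
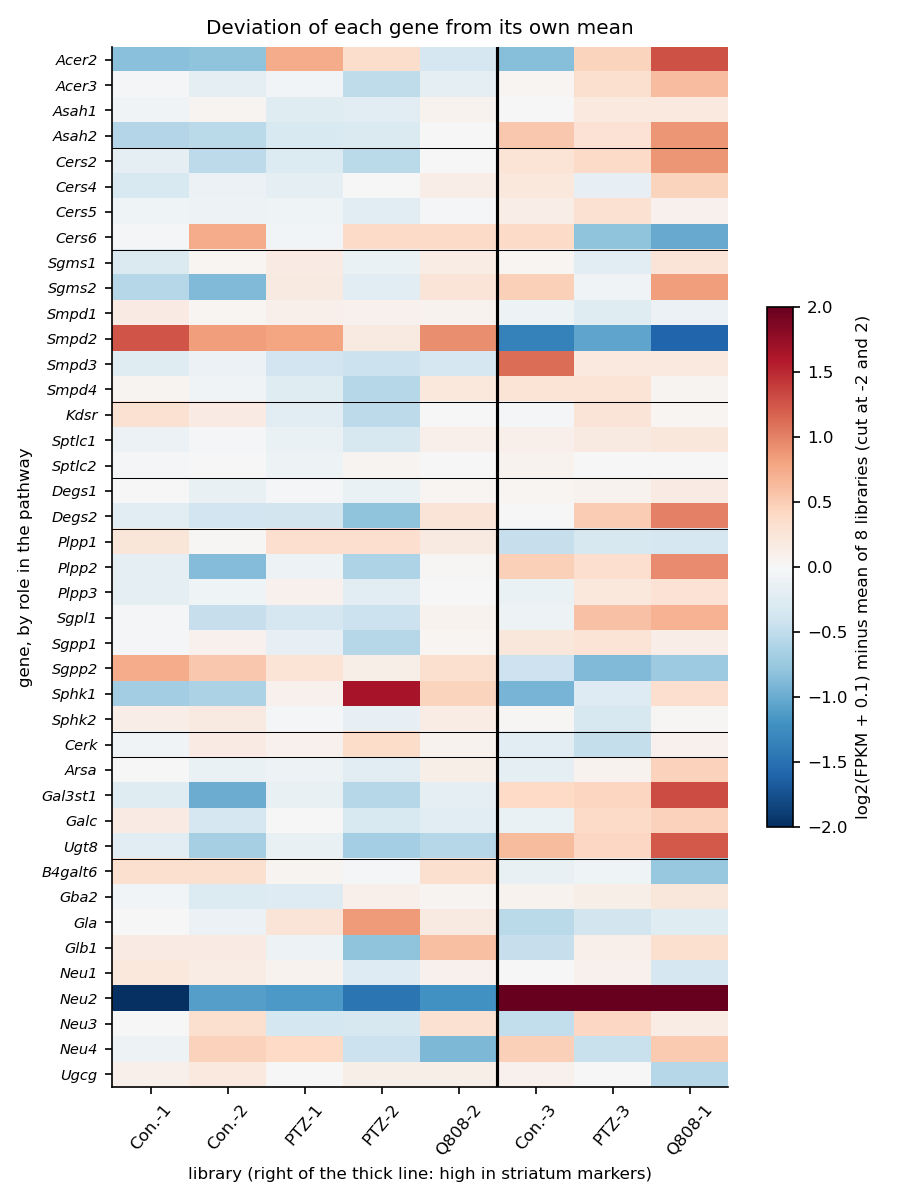
Deviation of log2(FPKM + 0.1) of 41 of the 42 tested members from their own mean over the 8 libraries, with genes in rows by role and the 3 libraries high in striatum markers right of the thick line. *Acer2* is low in the 3 Con. columns on both sides of the line, *Smpd2*, *Neu2* and *Sgpp2* change across the line, and Q808-1 at the far right holds the highest value of 20 members.

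Single libraries differed in how many extremes they held. Q808-1 had the highest of the 8 values for 20 of the 42 members, and PTZ-2 had the lowest for 13. Without Q808-2, so that Q808-1 stood alone for its group, the median difference of the members from Con. was 0.22, against 0.05 for all tested genes. Without Q808-1 it was 0.12, against 0.05. The *Acer2* difference from Con. was 2.10 in the former and 0.50 in the latter, so its size depended on which of the 2 Q808 rats was used.

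Outside the KEGG map, 30 further genes of sphingolipid transport, regulation, receptors and gangliosides were found in the files, and 29 were tested. None was called in PTZ against Con. or in Q808 against Con., where 2.53% and 3.46% of all tested genes were called. In Q808 against PTZ 1 of the 29 was called, *Abcc1*, an exporter of S1P among other substrates, where 1.92% of all tested genes were called. Nothing is read from that count. *Abcc1* had 3.76, 3.95 and 6.02 FPKM in Con., 3.63, 3.20 and 4.83 in PTZ, and 6.82 and 6.21 in Q808. Both Q808 values were above all others, with a difference from PTZ of 0.75 (SE 0.27, adjusted p = 0.952) and from Con. of 0.53 (SE 0.26, not called). The range over the 29 genes was -0.69 (*Plekha8*) to 0.66 (*Spns2*, an S1P transporter) in PTZ against Con., -0.56 (*Spns2*) to 0.75 in Q808 against PTZ, and -0.49 (*Cptp*) to 0.59 (*Gltp*) in Q808 against Con. *Spns2* had 19.3, 19.2 and 10.6 FPKM in Con., 30.2, 40.1 and 12.9 in PTZ, and 14.6 and 19.6 in Q808, and was higher in PTZ-1 and PTZ-2 than in any other library. The S1P receptors *S1pr1* and *S1pr5* were the most abundant of their 5, with 33.8 to 61.4 and 11.4 to 42.9 FPKM.

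The 5 tested genes whose profile over the 8 libraries was most like that of *Acer2* were *Ifit3*, *C130050O18Rikl*, *Spp1*, *Aspa* and *Ccdc77*. Likeness was the root mean square difference of mean-centred log2 values, which was 0.309 to 0.338 for these genes. *Ifit3*, an interferon-induced gene, had 1.17 to 1.51 FPKM in Con., 2.39, 3.41 and 3.51 in PTZ, and 4.41 and 2.06 in Q808. *Spp1*, which encodes osteopontin, had 0.448 to 0.621 FPKM in Con., 1.20 to 2.26 in PTZ, and 4.86 and 0.941 in Q808. *Aspa*, the aspartoacylase of oligodendrocytes, had 6.66 to 10.6 FPKM in Con., 13.3 to 15.7 in PTZ, and 23.7 and 9.66 in Q808. The members nearest to *Acer2* were *Sgms2*, *Plpp3* and *Galc*, at differences of 0.641 to 0.649 and at rank 1088 or later of all tested genes, so that no other sphingolipid gene was among the closest.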

How the data were processed

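Reads were trimmed by the authors with Trimmomatic, and Cufflinks gave the FPKM they deposited for each gene. The processing notes also name HISAT2, Bowtie2, StringTie, SAMtools, HTSeq and DESeq, and the genome build is not given in the sources used here. Read counts were not used here, so no count test was run. FPKM steps gave whole fragments for 47 members (tolerance 0.05), the smallest whole numbers that fit, up to an unknown common factor. Their counting error does not include the variation between rats. Names came from the RefSeq table of GRCr8, which matched 20633 genes.

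Genes with a mean of at least 0.1 FPKM were tested on log2(FPKM + 0.1) with limma 3.58.1 (empirical Bayes with trend, R 4.3.3), each comparison on its own 2 groups, two-sided, with Benjamini-Hochberg adjustment over 15593 genes. Other steps used Python 3.11.15, and figures matplotlib 3.10.9. The procedure was run on simulated data with known changes, independent errors and no striatum-high libraries. Recovery of the changed genes was required only at a spread below that of these data. It therefore does not show how many changes the fit would find here. The members and lists were chosen with earlier results of these data known. Values in every library are given for tested ceramidases, ceramide synthases, sphingomyelin enzymes and called members, and for other classes the extremes, with further genes named after their values were seen. Libraries are separate rats. The values of 1 tested member are not reported here.

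The replicate numbers of the labels were checked for pairing. Deviations from the group means of Con. and PTZ libraries with the same number correlated at 0.212, 0.299 and 0.422. Those with unlike numbers correlated at -0.427 to 0.322, the highest being Con.-2 with PTZ-1, so the values do not settle whether numbers pair rats. The main fits used no pairing, and the replicate block is an alternative only. Number 3 is high in striatum markers in both groups. Alternatives were other pseudocounts, filters, scalings and fits, the replicate block, and leaving out libraries.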

Additional observations from a re-analysis of the deposited data

How the results depend on the processing

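In PTZ against Con. the count of called members was 2 with all 3 groups in a fit and without limma's trend. Of all 15593 tested genes, 404 and 478 were called there. The count was also 2 with the replicate block and with an indicator of the 3 striatum-high libraries, where 616 and 669 genes were called. Without those libraries it was 4, where 1530 genes were called. Leaving out a library each gave 1 to 3. The 3 were *Acer2*, *Gla* and *Sphk1* without PTZ-3, where 1135 genes were called. At an adjusted p under 0.05 no member was called. *Acer2* was called in each of these fits, at a difference of 1.23 to 1.42, except for the adjusted p, and at 1.09 with a pseudocount of 1. In Q808 against PTZ the count was 5 with the replicate block (*Cers2*, *Degs2*, *Glb1*, *Plpp2* and *Sgpl1*). With that block 1894 of all 15593 tested genes were called. The count was 1 with the indicator, where 590 genes were called. Without PTZ-3 it was 3, where 1569 genes were called, and it was 0 without PTZ-1 or PTZ-2. The *Acer2* difference there was -0.88 without the 3 libraries, -0.85 without Q808-1 and 0.76 without Q808-2. Its sign and size thus depended on which Q808 rat was kept. Leaving out a PTZ library each, the *Acer2* difference was -0.12 to 0.07. That of *Sphk1* turned to 0.013 with the indicator and was -0.48 to 0.48 leaving out a library each, positive without PTZ-2. In Q808 against Con. the count was 1 with all 3 groups in a fit and under quantile normalization, where 471 and 441 genes were called. With the replicate block it was 8 (*Acer2*, *Asah2*, *Cers2*, *Degs2*, *Gal3st1*, *Plpp2*, *Sgms2* and *Sgpl1*), where 1076 genes were called. It was 0 without Con.-1 or Con.-2, where 375 and 279 genes were called, and 3 without Con.-3, where 704 were. The 3 without Con.-3 were *Asah2*, *Degs2* and *Sgms2*, so that *Acer2* and *Sphk1* were not among them. At an adjusted p under 0.05 the count was 0. The *Acer2* difference there missed the threshold with all genes above 0 (1.30), under quantile normalization (1.21) and without the 3 libraries (0.49), and was 0.50 to 2.10 leaving out a library each. The causes of these changes were not tested. Where 1 Q808 library was left, it was assumed to vary like the other groups. Over all tested genes, calls by setting ranged from 219 to 1530 in PTZ against Con. with 41.1% to 76.3% higher. In Q808 against PTZ 70.7% of calls were higher, and 47.8% under quantile normalization, and in Q808 against Con. 88.7% and 64.2%. Adjusted p over the settings was 0.057 to 1.00 for *Acer2* in PTZ against Con. The Q808 numbers were not taken to pair rats either. Deviations of number 1 correlated at -0.295 with PTZ and -0.379 with Con., while those of number 2 did so at 0.322 and 0.527. In a group of 2 libraries, the deviation of one is that of the other with its sign changed. PTZ-1 thus correlated at -0.295 with Q808-1 and at 0.295 with Q808-2. These values therefore cannot show whether the Q808 numbers pair rats. Depth is low for *Neu4* and *Sphk1*, at 1 to 14 and 5 to 68 fragments a library.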

Other observations

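*Cers1*, the ceramide synthase of neurons, and *Gdf1*, a growth factor gene known to share a transcript with it, were both listed at 0 in all 8 libraries. Summed over the 6 ceramide synthases, the FPKM were 47.0, 48.2 and 60.8 in Con., 46.5, 45.3 and 58.8 in PTZ, and 68.5 and 53.9 in Q808, highest in each group in its striatum-high library. *Sgms2* was 1.40% to 4.29% of the FPKM of both sphingomyelin synthases in Con., 2.84% to 3.34% in PTZ, and 4.85% and 3.42% in Q808. These values were chosen after the data were seen.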
